A study of Mus musculus with 8 samples.

Results

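The genes described here are 10 members of the BCL2 family, which sets whether a cell survives or dies through its mitochondria. They were chosen by name: the survival genes Bcl2, Bcl2l1, Mcl1, Bcl2a1a, Bcl2a1b and Bcl2a1d, and the death genes Bcl2l11, Bbc3, Bax and Bak1. All 10 of them were among the 37411 genes of the count table, and all 10 were among the 10000 genes with enough counts to be tested. RNA had been sequenced from about 10000 sorted CD4+ effector T cells per sample, 6 weeks after the cells were transferred into mice. The cells came from small intestine or spleen and carried a retroviral hairpin construct (LMPd), either shMdr1, against the multidrug transporter Mdr1 encoded by Abcb1a, or the control shCD8. The hosts were C57BL/6 Rag1-/- mice, which cannot make T or B cells of their own but keep their myeloid, epithelial and erythroid cells. Hosts were Slc10a2 -/- (Asbt-/-), without the ileal bile acid transporter, or Slc10a2 +/+ (Asbt+/+). Each combination of tissue, hairpin and host was 1 library, so there were 8 libraries and 4 at each level of a factor. The hairpin was read from the sample titles, since the label for the retrovirus names shMdr1 for all 8 libraries.

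BCL2, BCL-XL (Bcl2l1), MCL1 and A1 (the Bcl2a1 copies) hold the effector proteins BAX and BAK in check. BH3-only proteins such as BIM (Bcl2l11) and PUMA (Bbc3) bind the survival proteins and so free BAX and BAK, which then permeabilise the outer mitochondrial membrane and release cytochrome c. In T cells, interleukin-7 signalling maintains BCL2, antigen receptor and NF-kappaB signalling induce A1 and BCL-XL, BIM removes activated cells once an antigen is gone, and MCL1 is needed for survival throughout.

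Library totals ran between 1685225 and 2767105 counts, and levels below are in CPM, the counts of a gene relative to the library total after TMM scaling. The library labelled shCD8 small intestine Asbt+/+ stood apart: it had counts for 8456 genes, and the other 7 libraries had counts for 11345 to 13184. Abcb1a, the gene targeted by shMdr1, was lower in the shMdr1 library in 3 of the 4 matched pairs. The exception was the small intestine pair of Asbt+/+ hosts. It had 14.7 CPM (23 counts) in the library labelled shMdr1 and 8.24 CPM (21 counts) in the library labelled shCD8. This goes against the labels of that pair but rests on few counts. The summed CD4 T cell markers lay between 4920 and 9563 CPM in small intestine and between 5792 and 6955 CPM in spleen. The lowest sum of the 8 libraries was in shCD8 small intestine Asbt-/-. The other small intestine libraries, at 8635 to 9563 CPM, lay above every spleen library. The labels do not say which libraries came from separate animals, so p-values cover only the variation among these 8 libraries, some of which may be technical.

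Set side by side per kilobase of exon, the Bcl2a1 copies had the highest means of the family in small intestine and Mcl1 had the highest in spleen. The lengths include bases that the near-identical Bcl2a1 copies share. How reads from these bases were counted is not given, so the rank of the copies is uncertain. Bcl2a1d averaged 289 ± 139 CPM per kilobase, Bcl2a1b 246 ± 53.6, Bcl2a1a 87.7 ± 40.1, Mcl1 72.2 ± 7.94, Bax 51.4 ± 24.3 and Bcl2 9.20 ± 3.32 in small intestine (SD, n = 4). The remaining 4 genes, Bak1, Bcl2l1, Bbc3 and Bcl2l11, averaged 2.10 to 4.37 CPM per kilobase there. In spleen, Mcl1 averaged 88.7 ± 6.80 CPM per kilobase, Bcl2a1d 75.5 ± 15.6, Bcl2a1b 66.1 ± 16.7, Bax 55.3 ± 12.8, Bcl2a1a 13.9 ± 8.10 and Bcl2 12.0 ± 1.10 (SD, n = 4), and the remaining 4 averaged 1.17 to 5.18. The mean ± SD of neighbours in these orders overlapped, apart from Bcl2a1b above Bcl2a1a and Bax above Bcl2 in small intestine, and Bax above Bcl2a1a, Bcl2 above Bbc3 and Bcl2l1 above Bcl2l11 in spleen.

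**Figure D1:**
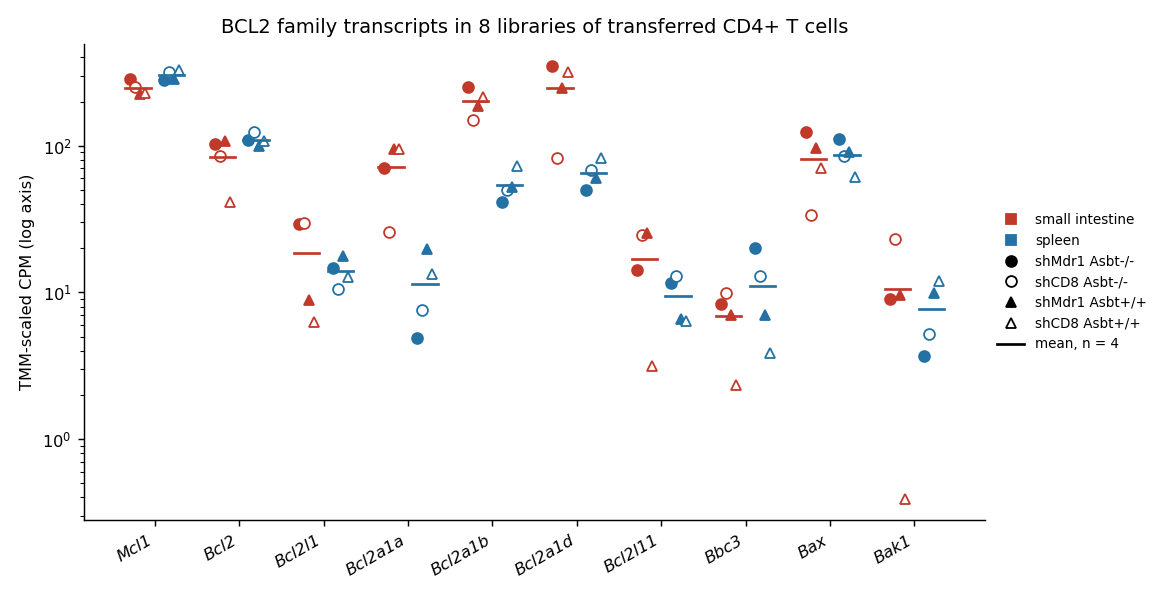
TMM-scaled CPM (log axis) of the 10 genes in each of the 8 libraries, with small intestine in red left of spleen in blue, filled symbols for shMdr1, open symbols for shCD8, circles for Asbt-/- hosts, triangles for Asbt+/+ hosts and a bar at the mean of 4 libraries. For the 3 Bcl2a1 copies every small intestine library lies above every spleen library, while the other 7 genes overlap between the tissues.

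The clearest difference in the family was between the tissues, in the Bcl2a1 copies that encode A1. Mouse has several near-identical copies on chromosome 9, and their counts cannot be assigned with certainty. Bcl2a1a, Bcl2a1b and Bcl2a1d each have 516 coding bases before the stop codon, of which 12 differ among them, and their pairwise identity is 97.87 to 98.84%. Of all runs of 50 bases in the GENCODE transcript, 31.04% in Bcl2a1a, 42.45% in Bcl2a1b and 20.52% in Bcl2a1d occur in no other copy. How reads that fit several copies were counted is not given in the sources used here. The opening 90 coding bases (GENCODE vM21 transcripts, coding strand, bases 1 to 90) show how little separates the copies, with capitals at the 6 positions in this stretch where the copies differ:
Bcl2a1a: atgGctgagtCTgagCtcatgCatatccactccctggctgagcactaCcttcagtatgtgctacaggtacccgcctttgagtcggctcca
Bcl2a1b: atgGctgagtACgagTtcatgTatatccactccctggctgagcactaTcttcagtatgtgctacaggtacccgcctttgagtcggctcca
Bcl2a1d: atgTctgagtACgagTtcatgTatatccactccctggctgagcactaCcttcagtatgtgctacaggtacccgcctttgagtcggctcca

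In small intestine, Bcl2a1a had 70.6 CPM in shMdr1 Asbt-/-, 25.8 CPM in shCD8 Asbt-/-, 95.2 CPM in the library labelled shMdr1 Asbt+/+ and 95.8 CPM in that labelled shCD8 Asbt+/+. In spleen it had 4.90 CPM in shMdr1 Asbt-/-, 7.62 CPM in shCD8 Asbt-/-, 19.9 CPM in shMdr1 Asbt+/+ and 13.3 CPM in shCD8 Asbt+/+. Every small intestine library was thus above every spleen library, with shCD8 Asbt-/- the lowest of the 4 in small intestine and both Asbt-/- libraries the lowest in spleen.

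Bcl2a1b had 252 CPM in shMdr1 Asbt-/-, 149 CPM in shCD8 Asbt-/-, 187 CPM in the library labelled shMdr1 Asbt+/+ and 215 CPM in that labelled shCD8 Asbt+/+ in small intestine. The spleen values were 41.0 CPM in shMdr1 Asbt-/-, 49.6 CPM in shCD8 Asbt-/-, 52.2 CPM in shMdr1 Asbt+/+ and 73.2 CPM in shCD8 Asbt+/+. The tissues did not overlap, and the lowest small intestine library was again shCD8 Asbt-/-.

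Bcl2a1d had 352 CPM in shMdr1 Asbt-/-, 82.6 CPM in shCD8 Asbt-/-, 246 CPM in the library labelled shMdr1 Asbt+/+ and 317 CPM in that labelled shCD8 Asbt+/+ in small intestine. Spleen libraries had 50.2 CPM in shMdr1 Asbt-/-, 68.1 CPM in shCD8 Asbt-/-, 60.1 CPM in shMdr1 Asbt+/+ and 82.1 CPM in shCD8 Asbt+/+. The shCD8 Asbt-/- library of small intestine nearly met the highest spleen library, and the other 3 small intestine libraries were well above it.

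In the edgeR quasi-likelihood test, 62 of 10000 genes (0.62%) passed an adjusted threshold of 0.05 between the tissues. Of the 10 family genes 2 passed, Bcl2a1a and Bcl2a1b. Bcl2a1a averaged 71.8 ± 32.9 CPM in small intestine and 11.4 ± 6.63 CPM in spleen (SD, n = 4 each), a 6.38-fold difference (log2 2.67 ± 0.46 (SE), adjusted p = 0.0274). Bcl2a1b averaged 201 ± 43.8 CPM in small intestine and 54.0 ± 13.6 CPM in spleen, a 3.77-fold difference (log2 1.91 ± 0.29, adjusted p = 0.0170). Bcl2a1d averaged 249 ± 120 CPM in small intestine and 65.1 ± 13.5 CPM in spleen. Its log2 fold change of 1.90 ± 0.41 was as large as that of Bcl2a1b but did not pass (adjusted p = 0.0845). Each of the 3 copies was higher in small intestine in 4 of 4 matched pairs and did not overlap between the tissues. No overlap held for 3 of the 10 family genes. It held for 8.07% of all tested genes in either direction and for 3.39% with small intestine higher. The copies are near-identical and may share reads, so they are not 3 independent genes.

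Because reads may have been split among the copies, their counts were also summed with those of Bcl2a1c, a shorter copy with 15 counts or fewer in each library. The sum was 678 CPM in shMdr1 Asbt-/-, 258 CPM in shCD8 Asbt-/-, 537 CPM in the library labelled shMdr1 Asbt+/+ and 629 CPM in that labelled shCD8 Asbt+/+ in small intestine. In spleen it was 97.4 CPM in shMdr1 Asbt-/-, 126 CPM in shCD8 Asbt-/-, 134 CPM in shMdr1 Asbt+/+ and 171 CPM in shCD8 Asbt+/+. The sum was 3.96-fold higher in small intestine (log2 1.99 ± 0.32, adjusted p = 0.0209) in a fit in which 61 of 9998 genes (0.61%) passed. The libraries of the tissues did not overlap in the sum either. The sum passed without the library labelled shCD8 small intestine Asbt+/+ (adjusted p = 0.0285) and without shCD8 small intestine Asbt-/- (0.00908). It did not pass in the other 6 fits with 1 library left out, namely without shMdr1 small intestine Asbt-/- (0.0543), without the library labelled shMdr1 small intestine Asbt+/+ (0.0860) and without any 1 of the 4 spleen libraries (0.0634 to 0.124), nor without both small intestine Asbt+/+ libraries (0.125).

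The direction held when any 1 library was left out, with log2 fold changes of 2.33 to 2.87 for Bcl2a1a and 1.63 to 2.08 for Bcl2a1b, but the calls did not. No family gene passed without shMdr1 small intestine Asbt-/- (adjusted p = 0.150 for Bcl2a1a and 0.0505 for Bcl2a1b), without the library labelled shMdr1 small intestine Asbt+/+ (0.112 and 0.0782), without the spleen Asbt-/- library of shMdr1 (0.115 and 0.0951), without that of shCD8 (0.112 for each) or without the spleen Asbt+/+ library of shMdr1 (0.142 and 0.0842). When the spleen Asbt+/+ library of shCD8 was left out, only Bcl2a1b of the 10 passed (adjusted p = 0.0371, against 0.103 for Bcl2a1a). Both passed without the library labelled shCD8 small intestine Asbt+/+, and all 3 copies passed without shCD8 small intestine Asbt-/- (adjusted p = 0.0101 for Bcl2a1d). Without both small intestine Asbt+/+ libraries the log2 fold changes were 2.75 and 2.14 and neither passed (adjusted p = 0.113 and 0.0678).

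Markers of macrophages and other antigen-presenting cells, which also express A1, moved the same way between the tissues. All 11 of the listed markers found in the table had counts in at least 1 library, and their sum ranged between 578 and 1201 CPM in small intestine and between 178 and 515 CPM in spleen. Within small intestine the sum was 707 CPM in shMdr1 Asbt-/- and 1201 CPM in shCD8 Asbt-/-. It was 578 CPM in the library labelled shMdr1 Asbt+/+ and 890 CPM in that labelled shCD8 Asbt+/+. The summed Bcl2a1 copies stood at 678, 258, 537 and 629 CPM in the same order. Lyz2, Cd74 and the MHC class II genes H2-Aa, H2-Ab1 and H2-Eb1 had counts in all 8 libraries. Of the 4 small intestine libraries, Adgre1 was at 0 in 3, Itgax in 2, and Csf1r, Cd68 and Cd14 in 1. Of the 4 spleen libraries, Cd14 and Itgax were at 0 in 2, and Adgre1, Csf1r and Cd68 in 1. The sum of epithelial markers was 60.4 to 483 CPM in small intestine and 22.4 to 188 CPM in spleen. Neutrophils also express A1, and the sum of their markers moved the opposite way, at 10.6 to 192 CPM in small intestine and 854 to 7546 CPM in spleen. Of the 12 listed neutrophil markers, 3 to 7 had counts in a small intestine library and 8 to 11 in a spleen library. Cxcr2 was at 0 in all 8 libraries. The sum of erythroid genes also moved the opposite way, at 38.1 to 104 CPM in small intestine and 1090 to 41375 CPM in spleen. The part of these cells in the Bcl2a1 difference was not tested. Fewer cells of a type and less RNA per cell cannot be told apart in such libraries.

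**Figure D2:**
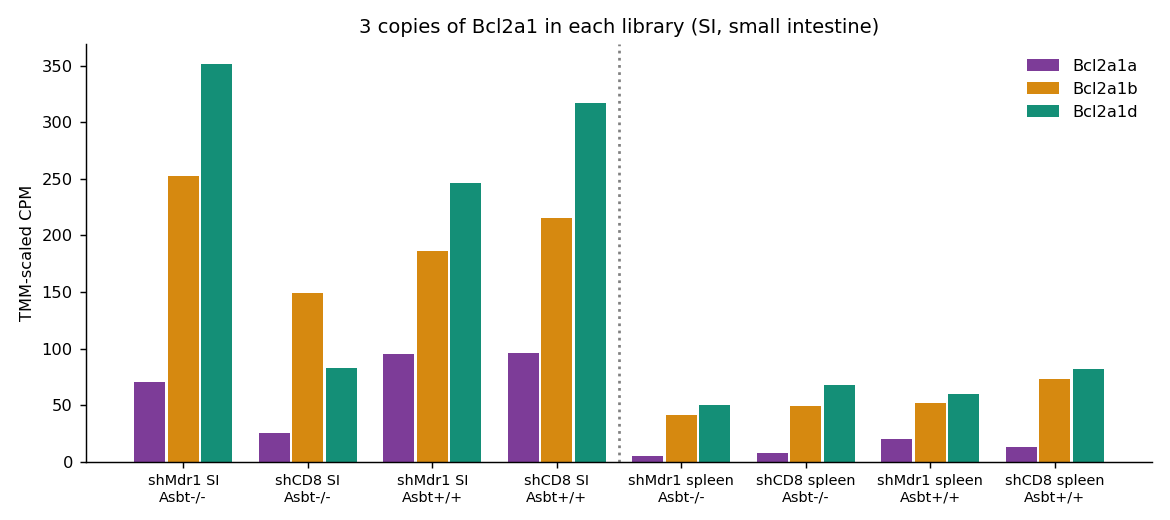
TMM-scaled CPM of Bcl2a1a, Bcl2a1b and Bcl2a1d in each of the 8 libraries, 1 bar per copy, with the 4 small intestine (SI) libraries left of the dotted line and the 4 spleen libraries right of it. The bars are lower in every spleen library, and shCD8 Asbt-/- has the lowest bars in small intestine, at 25.8, 149 and 82.6 CPM.

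The copies are also alike before their start sites. Over the 67 bases printed below, Bcl2a1a and Bcl2a1b were identical, and Bcl2a1d differed from each by 11 edits (83.58% identity). The windows were compared end to end, and Bcl2a1d lacks a short run after the motif, which shifts the bases that follow. The edits are therefore not separate base changes. Searched on both strands of the 250 bases before each RefSeq start (GRCm38.p6), the AP-1 motif TGANTCA was found in Bcl2a1a, Bcl2a1b and Bcl2a1d and in none of the other 7 family genes, while 6.75% of all 32851 RefSeq promoters of that length hold it. Each copy has 1 match, beginning 120 bases before the RefSeq start of Bcl2a1a, 164 before that of Bcl2a1b and 114 before that of Bcl2a1d. The NF-kappaB consensus was found in Bcl2l1 and Bbc3 among the 10 genes and in 7.25% of all promoters. The copies are alike in this stretch, so their 3 matches are not independent of each other. The stretch around the match, chosen after these 3 genes were seen high together, is shown with the 7 motif letters in capitals. Bcl2a1c is added with the 7 letters that follow the same run of bases:
Bcl2a1a (chr9:88956770-88956836, plus strand): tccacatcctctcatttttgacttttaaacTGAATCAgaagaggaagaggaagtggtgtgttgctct
Bcl2a1b (chr9:89199079-89199145, plus strand): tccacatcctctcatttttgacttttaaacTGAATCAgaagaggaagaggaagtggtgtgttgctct
Bcl2a1d (chr9:88731928-88731994, minus strand): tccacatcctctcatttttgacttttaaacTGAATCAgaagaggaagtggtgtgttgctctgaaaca
Bcl2a1c (chr9:114329885-114329941, plus strand): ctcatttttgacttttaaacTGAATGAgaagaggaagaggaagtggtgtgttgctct

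Counted from 1 at the start of the 7 letters, Bcl2a1c carries C6G relative to Bcl2a1a and so does not hold the motif there. Bcl2a1c had 1 to 15 counts in small intestine and 1 to 5 counts in spleen, too few to be tested. A match describes these letters only, and whether it bears on the counts was not tested.

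The other survival genes did not pass between the tissues. Mcl1, which encodes a short-lived protein that binds BAK and BIM, had 283 CPM in shMdr1 Asbt-/-, 251 CPM in shCD8 Asbt-/-, 224 CPM in the library labelled shMdr1 Asbt+/+ and 228 CPM in that labelled shCD8 Asbt+/+ in small intestine. In spleen Mcl1 had 279.9 CPM in shMdr1 Asbt-/-, 319 CPM in shCD8 Asbt-/-, 287 CPM in shMdr1 Asbt+/+ and 327 CPM in shCD8 Asbt+/+. The tissues overlapped only through shMdr1 Asbt-/-, and the log2 fold change was -0.30 ± 0.22 (adjusted p = 0.784).

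Bcl2, the survival gene of resting T cells, had 103 CPM in shMdr1 Asbt-/-, 85.0 CPM in shCD8 Asbt-/-, 108 CPM in the library labelled shMdr1 Asbt+/+ and 41.2 CPM in that labelled shCD8 Asbt+/+ in small intestine. In spleen Bcl2 had 109 CPM in shMdr1 Asbt-/-, 123 CPM in shCD8 Asbt-/-, 99.0 CPM in shMdr1 Asbt+/+ and 108 CPM in shCD8 Asbt+/+. Its lowest value was in the library with the fewest detected genes, 2 of the other 3 small intestine libraries lay within the spleen range, and the log2 fold change was -0.44 ± 0.31 (adjusted p = 0.776).

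Bcl2l1, encoding BCL-XL, had 29.2 CPM in shMdr1 Asbt-/-, 29.8 CPM in shCD8 Asbt-/-, 8.94 CPM in the library labelled shMdr1 Asbt+/+ and 6.28 CPM in that labelled shCD8 Asbt+/+ in small intestine. In spleen the gene had 14.7 CPM in shMdr1 Asbt-/-, 10.5 CPM in shCD8 Asbt-/-, 17.8 CPM in shMdr1 Asbt+/+ and 12.8 CPM in shCD8 Asbt+/+. In small intestine the Asbt-/- libraries were above the spleen range and the Asbt+/+ libraries below it, and the log2 fold change over all was 0.14 ± 0.76 (adjusted p = 0.979).

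The BH3-only genes had low counts. Bcl2l11, encoding BIM, had 14.2 CPM in shMdr1 Asbt-/-, 24.6 CPM in shCD8 Asbt-/-, 25.6 CPM in the library labelled shMdr1 Asbt+/+ and 3.14 CPM (8 counts) in that labelled shCD8 Asbt+/+ in small intestine. In spleen it had 11.6 CPM in shMdr1 Asbt-/-, 12.9 CPM in shCD8 Asbt-/-, 6.63 CPM in shMdr1 Asbt+/+ and 6.42 CPM in shCD8 Asbt+/+. It was higher in small intestine in 3 of 4 pairs (log2 0.83 ± 0.83, adjusted p = 0.850) and the library labelled shCD8 Asbt+/+ was the exception.

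Bbc3, encoding the p53 target PUMA, had 8.28 CPM in shMdr1 Asbt-/-, 9.93 CPM in shCD8 Asbt-/-, 7.03 CPM in the library labelled shMdr1 Asbt+/+ and 2.35 CPM in that labelled shCD8 Asbt+/+ in small intestine. The spleen values were 20.2 CPM in shMdr1 Asbt-/-, 12.9 CPM in shCD8 Asbt-/-, 7.04 CPM in shMdr1 Asbt+/+ and 3.85 CPM in shCD8 Asbt+/+. It was lower in small intestine in 4 of 4 pairs, by very little between the shMdr1 libraries of Asbt+/+ hosts, the tissues overlapped and it did not pass (log2 -0.53 ± 0.88, adjusted p = 0.913).

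The effector genes Bax and Bak1 did not pass between the tissues. Bax had 123 CPM in shMdr1 Asbt-/-, 33.8 CPM in shCD8 Asbt-/-, 96.5 CPM in the library labelled shMdr1 Asbt+/+ and 70.2 CPM in that labelled shCD8 Asbt+/+ in small intestine. In spleen Bax had 111 CPM in shMdr1 Asbt-/-, 85.8 CPM in shCD8 Asbt-/-, 90.3 CPM in shMdr1 Asbt+/+ and 61.6 CPM in shCD8 Asbt+/+. Small intestine held both its highest and its lowest value, and its log2 fold change between the tissues was -0.18 ± 0.33 (adjusted p = 0.923).

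Bak1 had 9.07 CPM in shMdr1 Asbt-/-, 23.0 CPM in shCD8 Asbt-/-, 9.58 CPM in the library labelled shMdr1 Asbt+/+ and 0.392 CPM (1 count) in that labelled shCD8 Asbt+/+ in small intestine. In spleen it had 3.68 CPM in shMdr1 Asbt-/-, 5.24 CPM in shCD8 Asbt-/-, 9.94 CPM in shMdr1 Asbt+/+ and 12.0 CPM in shCD8 Asbt+/+. Small intestine spanned the whole spleen range, and the log2 fold change was 0.39 ± 1.25 (adjusted p = 0.956).

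**Figure D3:**
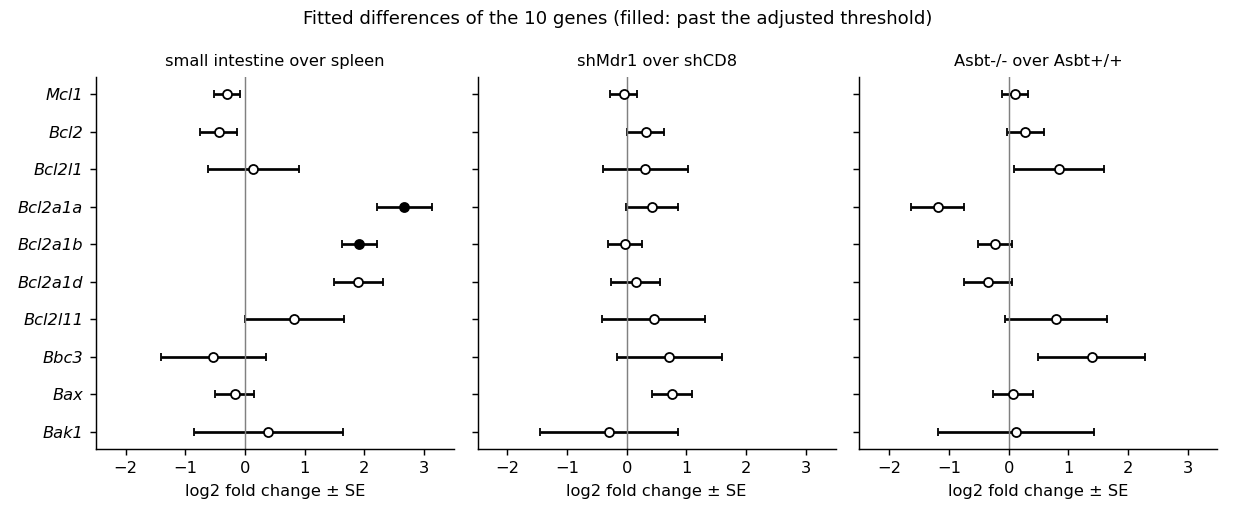
Fitted log2 fold change ± SE of the 10 genes in the additive edgeR fit of 8 libraries, for small intestine over spleen, shMdr1 over shCD8 and Asbt-/- over Asbt+/+ (4 libraries against 4 in each), with filled points past the adjusted threshold. The filled points are Bcl2a1a at 2.67 and Bcl2a1b at 1.91 in the tissue panel.

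Ratios of counts within a library do not depend on its scaling. The summed Bcl2a1 copies had 6.59 counts per Bcl2 count in shMdr1 Asbt-/-, 3.04 in shCD8 Asbt-/-, 4.98 in the library labelled shMdr1 Asbt+/+ and 15.3 in that labelled shCD8 Asbt+/+ in small intestine. In spleen the ratio was 0.893 in shMdr1 Asbt-/-, 1.02 in shCD8 Asbt-/-, 1.35 in shMdr1 Asbt+/+ and 1.58 in shCD8 Asbt+/+. Each small intestine library was above each spleen library. This ratio was chosen after the values were seen and is a description.

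Bcl2, which sequesters BIM, had 7.25 counts per Bcl2l11 count in shMdr1 Asbt-/-, 3.45 in shCD8 Asbt-/-, 4.23 in the library labelled shMdr1 Asbt+/+ and 13.1 in that labelled shCD8 Asbt+/+ in small intestine. In spleen the ratio was 9.37 in shMdr1 Asbt-/-, 9.59 in shCD8 Asbt-/-, 14.9 in shMdr1 Asbt+/+ and 16.8 in shCD8 Asbt+/+. It was lower in 3 of the 4 small intestine libraries than in any spleen library, and the exception again had the fewest detected genes and 8 Bcl2l11 counts. Bcl2l1 had 0.0828 to 0.351 counts per Bcl2 count in small intestine and 0.0849 to 0.180 in spleen. The summed Bcl2a1 copies had 10.5 to 200.2 counts per Bcl2l11 count in small intestine and 8.37 to 26.6 in spleen, so these ratios overlapped.

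**Figure D4:**
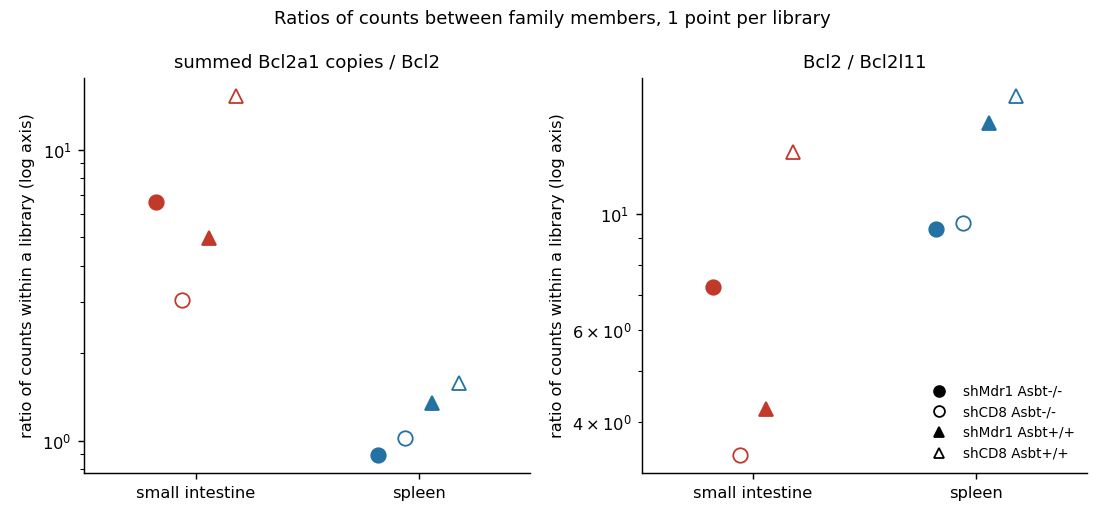
Ratio of the summed Bcl2a1 counts to Bcl2 counts (left panel) and of Bcl2 counts to Bcl2l11 counts (right panel) within each library, on log axes, with 4 small intestine libraries left of 4 spleen libraries in each panel. The left panel separates the tissues, at 3.04 to 15.3 in small intestine and 0.893 to 1.58 in spleen, while the right panel does not.

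The hairpin comparison asks what lowering Mdr1 does to transferred T cells. No gene passed among 10000 (0%), so none of the 10 family genes did, and the small intestine pair of Asbt+/+ hosts enters as labelled. The gene with the most regular difference was Bax, which averaged 105 ± 14.9 CPM with shMdr1 and 62.8 ± 21.8 CPM with shCD8 (SD, n = 4 each). It was higher with shMdr1 in 4 of 4 pairs and its libraries did not overlap, as was so for 1 of the 10 family genes and for 2.79% of all tested genes. Its log2 fold change of 0.76 ± 0.33 did not pass (adjusted p = 1.00). The size depended on 1 library: without shCD8 small intestine Asbt-/-, which had 33.8 CPM, it was 0.46, and without both small intestine Asbt+/+ libraries it was 0.92.

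The remaining 9 genes lay between -0.30 ± 1.16 for Bak1 and 0.71 ± 0.88 for Bbc3 in the same comparison. Bcl2 had a log2 fold change of 0.32 ± 0.31, Bcl2l1 0.31 ± 0.71, Mcl1 -0.05 ± 0.22, Bcl2l11 0.45 ± 0.86, Bcl2a1a 0.42 ± 0.44, Bcl2a1b -0.03 ± 0.28 and Bcl2a1d 0.15 ± 0.41. The Bcl2a1d copy, at 352 CPM with shMdr1 against 82.6 CPM with shCD8 in the small intestine pair of Asbt-/- hosts, was lower with shMdr1 in each of the other 3 pairs.

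The host comparison asks whether cells differ where ileal bile acid uptake is missing. No gene passed among 10000 (0%). Bbc3 averaged 12.8 ± 5.28 CPM in Asbt-/- hosts and 5.07 ± 2.35 CPM in Asbt+/+ hosts (SD, n = 4 each), higher in 4 of 4 pairs and without overlap. It was the only 1 of the 10 genes without overlap between hosts, beside 2.71% of all tested genes, and its log2 fold change of 1.39 ± 0.90 rested on 6 to 33 counts per library (adjusted p = 0.996). Bcl2a1a was lower in Asbt-/- hosts in 4 of 4 pairs, at 27.2 ± 30.4 CPM in Asbt-/- hosts and 56.0 ± 45.6 CPM in Asbt+/+ hosts, with a log2 fold change of -1.19 ± 0.44 that did not pass (adjusted p = 0.996). Its near-identical copies stood at -0.22 ± 0.28 for Bcl2a1b and -0.35 ± 0.40 for Bcl2a1d, and the sum of the copies at -0.40 ± 0.31. Mitochondrial counts made up 26.8% and 17.6% of the shMdr1 and shCD8 spleen Asbt-/- libraries, and 6.63% and 7.33% of spleen Asbt+/+. In the same order, small intestine had 8.62% and 7.27% in Asbt-/- hosts and 18.3% and 7.06% in Asbt+/+ hosts. Neutrophil marker sums in spleen were 3003 and 854 CPM in Asbt-/- hosts and 7546 and 6701 CPM in Asbt+/+ hosts. What part these had in the host differences was not tested.

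Bcl2l1 had a host log2 fold change of 0.84 ± 0.76. Within small intestine it was 1.97 ± 0.97 and within spleen -0.28 ± 0.94, and without both small intestine Asbt+/+ libraries the overall value was -0.29. The other values were 0.28 ± 0.31 for Bcl2, 0.10 ± 0.22 for Mcl1, 0.80 ± 0.86 for Bcl2l11, 0.07 ± 0.33 for Bax and 0.12 ± 1.31 for Bak1. None of these passed (adjusted p = 0.996 or above).

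**Figure D5:**
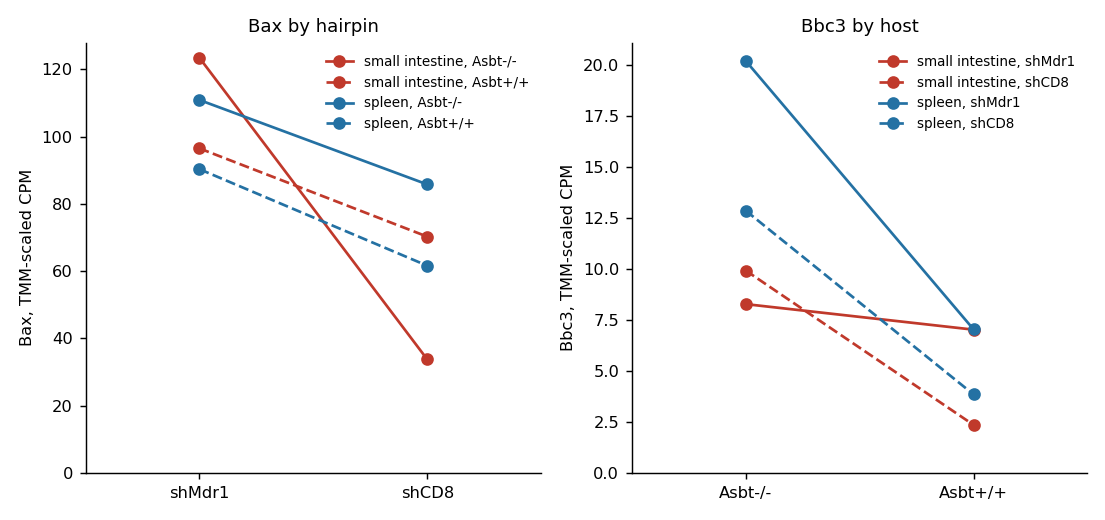
TMM-scaled CPM of Bax by hairpin (left panel, shMdr1 left of shCD8) and of Bbc3 by host (right panel, Asbt-/- left of Asbt+/+), with a line joining the 2 libraries alike in the other factors. All 4 lines are lower at their right end in both panels, and the steepest Bax line, ending at 33.8 CPM in shCD8, is small intestine of Asbt-/- hosts.

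Whether the hairpin or host effect itself differed was tested in fits with separate effects. No gene passed for the hairpin effect in small intestine minus that in spleen (0%), for the host effect in small intestine minus that in spleen (0%), or for the hairpin effect in Asbt-/- minus that in Asbt+/+ hosts (0%). Among the family, the difference with the smallest p was Bcl2 for the hairpin by tissue (0.98 ± 0.58, adjusted p = 1.00), Bcl2l1 for the host by tissue (2.25 ± 1.35, adjusted p = 0.937) and Bcl2a1d for the hairpin by host (1.16 ± 0.75, adjusted p = 1.00). Counts at an unadjusted threshold of 0.05 were 299 genes for hairpin, 271 for host, and 170, 431 and 119 for these 3 differences. Other tests of the hairpin and host effects called 3 and 6 genes with DESeq2 and 0 and 0 with limma-voom, and no family gene was among them.

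Genes that act beside the family showed 1 call between the tissues, Rel. It encodes c-REL, an NF-kappaB subunit that in mouse activates transcription of Bcl2a1 and Bcl2l1 after antigen receptor signalling. Whether Rel bears on the levels of these genes here was not tested. Of them, Bcl2l1 did not pass between the tissues (log2 0.14 ± 0.76, adjusted p = 0.979, edgeR). Among 22 tested regulators of the family Rel was the 1 that passed, beside 0.62% of all tested genes. Of the 22, 13 had a log2 fold change above 0 and 9 below 0. Rel averaged 224 ± 2.80 CPM in small intestine and 87.8 ± 12.0 CPM in spleen (log2 1.36 ± 0.23, adjusted p = 0.0268, edgeR). Its adjusted p was 0.0237 without the library labelled shCD8 small intestine Asbt+/+ and 0.0589 to 0.155 without any other library. The list's median log2 fold change was 0.29, against -0.17 over all tested genes. Cdkn1a, a p53 target that halts the cell cycle, stood at 117 ± 51.6 CPM in small intestine and 30.6 ± 11.5 CPM in spleen without passing (log2 1.89 ± 0.37, adjusted p = 0.0563). Il2ra, the interleukin-2 receptor alpha chain, stood at 1.87 ± 0.54 and Ddit3, the stress factor CHOP that can raise BIM, at 1.00 ± 0.33, with adjusted p of 0.270 and 0.375.

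No gene passed among 9 other tested family members, whose median was 0.19. Pmaip1, the BH3-only gene for NOXA, which neutralises MCL1, averaged 204 ± 86.5 CPM in small intestine and 107 ± 33.8 CPM in spleen (log2 0.90 ± 0.24, adjusted p = 0.178). Bcl2l12 stood at -2.37 ± 1.18, Bid, which links death receptors to mitochondria, at -2.83 ± 1.76 and Bcl2l2, encoding the survival protein BCL-W, at 2.04 ± 1.40, all with means of 11.4 CPM or less in each tissue.

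Downstream of BAX and BAK, 0 of 17 tested genes passed and the median was 0.05. Birc3, a ubiquitin ligase and NF-kappaB target that restrains cell death, averaged 158 ± 45.6 CPM in small intestine and 73.8 ± 2.23 CPM in spleen (log2 1.05 ± 0.26, adjusted p = 0.139), and its relative Birc2 stood at 0.81 ± 0.27. Birc5, encoding survivin and expressed in dividing cells, averaged 131 ± 96.8 CPM in small intestine and 303 ± 146 CPM in spleen (log2 -1.31 ± 0.43, adjusted p = 0.375). Apaf1, the scaffold of the apoptosome, stood at -0.72 ± 0.43.

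In the death receptor pathway 0 of 13 tested genes passed and the median was 0.02. Tnfrsf1b, the TNF receptor 2, averaged 106 ± 18.3 CPM in small intestine and 31.4 ± 13.9 CPM in spleen (log2 1.84 ± 0.37, adjusted p = 0.0621). Fasl, the ligand of the death receptor FAS, averaged 105 ± 48.1 CPM in small intestine and 37.8 ± 6.86 CPM in spleen (log2 1.39 ± 0.34, adjusted p = 0.135). Fas itself stood at 0.77 ± 0.30 and Traf2, an adaptor of TNF receptors, at -0.94 ± 0.70. None of the 4 lists held a gene that passed for hairpin or host.

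Across the 8 libraries, the log2 levels of the Bcl2a1 copies followed each other with Pearson r of 0.92 to 0.93. How reads that fit several copies were counted is not given, so these r values may in part reflect shared reads, which was not tested. The genes outside the family whose levels were most like the summed copies, among 6975 tested genes with a mean of at least 10 CPM, were Tff3 (r = 0.98), Nebl (0.97) and Fam110a (0.96). Tff3, a secreted goblet cell peptide, is among the 14 listed epithelial markers. Muc2, also on that list, had no counts in any small intestine library. The epithelial sum of small intestine was 61.5 CPM in shMdr1 Asbt-/- and 60.4 CPM in shCD8 Asbt-/-. It was 483 CPM in the library labelled shMdr1 Asbt+/+ and 212 CPM in that labelled shCD8 Asbt+/+. The summed copies stood at 678, 258, 537 and 629 CPM in the same order. The part of epithelial RNA in the Bcl2a1 pattern was not tested. For Bcl2 the genes most like it were Rspry1, 2410004B18Rik and Mterf3 (r = 0.99 for each). By ranks (Spearman rho) these stood at 0.98, 0.86 and 0.83. Bcl2 had 41.2 CPM in the library labelled shCD8 small intestine Asbt+/+ and 85.0 to 123 CPM in the others, which can raise Pearson r. For Bcl2l11 the genes were Rbbp6, 5830444F18Rik and Tshz1 (r = 0.96, 0.96 and 0.95, rho = 0.90, 0.98 and 0.95). All of these share the same 8 libraries and their depths, and the correlations are descriptions.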

How the data were processed

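RNA of sorted CD4+ effector T cells was converted to cDNA with the SMART-Seq v4 ultra low input kit and made into libraries with NEBNext Ultra II, per the labels' protocols. The deposited table holds raw counts of reads for each gene, in whole numbers. TopHat, HTSeq, DESeq2 and the mouse build mm9 are named in the submitters' processing notes; the versions, annotation and strand setting, and how reads that fit several genes were treated, are not given in the sources here. The kit carries no molecular identifiers. Some members (Bax, Bak1, Bcl2, Bcl2a1b and Bcl2a1d) overlap other genes of GENCODE vM21 somewhere along their span, introns included. Whether their exons overlap was not examined, and where they do, reads might not be told apart.

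Of 37411 genes, 17570 had counts and 10000 passed filterByExpr, holding 99.52% of counts. TMM scaling was followed by the edgeR 4.0.16 quasi-likelihood test (R 4.3.3), with Benjamini-Hochberg adjustment over all tested genes at 0.05. Tissue, hairpin and host entered 1 additive fit of 8 libraries with 4 residual degrees of freedom. Tissue-dependent effects used separate hairpin and host effects in each tissue (2 residual degrees of freedom), and hairpin by host used that term (3). SEs are approximate: each log2 fold change, without its sign, over the root of its F statistic. The edgeR step was tested on simulated counts.

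The 10 genes and all lists were chosen with earlier results of these data known. All 10 are always named. From each list, up to 4 genes with the smallest p in the tissue comparison are named, and nearest patterns are the 3 genes with the highest Pearson r of log2 CPM (prior count 2). Lengths and transcripts are from GENCODE vM21 (GRCm38) and promoters from RefSeq (GRCm38.p6), matched by symbol for 10 of 10 genes. No coordinate of the mm9 build is given. Alternatives were DESeq2 size factors, no filter on low counts, the DESeq2 1.42.0 Wald test, limma 3.58.1 voom without and with library quality weights, no covariates, a block for matched pairs, summed Bcl2a1 copies, totals without mitochondrial, hemoglobin and Rn18s-rs5 counts, and leaving out libraries. Those for Rel were added after the data were seen. The levels of 1 listed marker gene are not reported here.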

Additional observations from a re-analysis of the deposited data

How the results depend on the processing

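The Bcl2a1 copies kept their direction between the tissues under every alternative run. Genes called between the tissues numbered 165 without a filter, 257 with DESeq2, 125 with quality weights and 39 without both small intestine Asbt+/+ libraries, and 11 to 137 when 1 library was left out, against 62. Family genes called were 1 with limma-voom (73 genes in all, Bcl2a1a at adjusted p = 0.0640), 1 with a block for matched pairs (54 in all, Bcl2a1a at 0.0545), 0 without both small intestine Asbt+/+ libraries and 0 to 3 with 1 library out, against 2. They were 3, with Bcl2a1d, without a filter, with DESeq2 and without covariates (69 genes in all). Genes called without a filter, with DESeq2 and with quality weights were 9, 3 and 2 for hairpin and 14, 6 and 6 for host (0 to 4 with 1 library out). The difference between tissues gave 1 and 2 genes for hairpin and 22 and 15 for host with DESeq2 and quality weights. The hairpin by host difference gave 3 without a filter, 3 with limma-voom, 4 with quality weights and 0 to 770 with 1 library out. Leaving out 1 library gave 1 to 2920 genes and 0 to 3 family genes for the hairpin by tissue difference, and 0 to 3297 genes and 0 to 4 family genes for the host by tissue difference. With a small intestine library out, 3 libraries and 3 coefficients remain in that tissue, so it is fitted exactly and the spread comes from spleen alone. These differences could not be fitted by tissue without both small intestine Asbt+/+ libraries.

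Some values changed sign, not all of them near 0, and the cause was not tested. Limma-voom gave -0.091 for Bak1 by tissue, 0.050 for Bcl2a1b and 0.35 for Bak1 by hairpin, and -0.23 for Bcl2l11 in the host by tissue difference. Quality weights gave -0.017 for Bcl2, -0.12 for Bcl2l11 and -0.049 for the summed copies by hairpin, -0.42 for Bak1 by host, and -0.35 for Bcl2l11 and 0.12 for the summed copies in the host by tissue difference. Without both small intestine Asbt+/+ libraries the values were -0.0088 for Bcl2, 0.018 for Bcl2a1b and -0.32 for Bcl2l11 by hairpin, -0.29 for Bcl2l1, -0.036 for Mcl1 and -1.32 for Bak1 by host, and 0.17 for Bcl2 in the hairpin by host difference. Bcl2a1b by hairpin was 0.13 without covariates, and Bak1 was 0.17 with the block.

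With 1 library left out, ranges that crossed 0 by tissue were -0.28 to 0.52 for Bcl2l1, -0.38 to 0.13 for Bax and -0.78 to 1.15 for Bak1. By hairpin they were -0.044 to 0.77 for Bcl2l1, -0.30 to 0.12 for Bcl2a1b, -0.31 to 0.40 for Bcl2a1d, -0.15 to 0.016 for Mcl1, -0.13 to 0.81 for Bcl2l11, -0.91 to 0.96 for Bak1 and -0.21 to 0.25 for the summed copies. By host they were -0.87 to 0.055 for Bcl2a1d, -0.15 to 0.37 for Bax and -0.75 to 0.89 for Bak1. For the hairpin by tissue difference they were -0.51 to 0.032 for Bcl2l1, -0.15 to 1.35 for Bcl2a1a, -0.74 to 3.06 for Bcl2l11, -0.011 to 1.41 for Bax, -0.98 to 4.79 for Bak1 and -1.01 to 0.81 for Bbc3. For the host by tissue difference they were -0.24 to 0.87 for Bcl2, -0.54 to 0.92 for Bcl2a1a, -0.075 to 0.89 for Bcl2a1b, -1.68 to 0.78 for Bcl2a1d, -1.75 to 2.04 for Bcl2l11, -1.38 to 0.43 for Bbc3 and -0.84 to 0.78 for the summed copies. For the hairpin by host difference they were -1.21 to 0.0074 for Bcl2, -1.31 to 0.82 for Bcl2l1, -0.60 to 0.94 for Bcl2a1a, -0.088 to 0.33 for Mcl1 and -0.13 to 1.37 for Bax. The lowest counts in a library were 1 for Bak1, 6 for Bbc3, 8 for Bcl2l11 and 8 for Bcl2a1a, the last in shMdr1 spleen Asbt-/-, so the Bcl2a1a fold rests on few spleen counts.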
